A study of Mus musculus with 18 samples.

Results

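To describe how normal bone marrow (BM) mesenchymal stromal cells (MSCs, called MSPCs in the labels) changed during expansion in culture, the wild-type libraries of week 4 were compared with those of week 1. The 6 libraries were taken by their labels (Pot1a wt/wt, cultured, week 1 or week 4, 3 per week) out of 18 in the series, and every gene of the count table entered the analysis. Both groups came from C57BL/6 mice aged 4 to 6 months that were Pot1a wild/wild and carried a flox-stop-flox tdTomato reporter. Flushed marrow from femurs and tibiae was grown for a week, CD51+/PDGFRα+ adherent cells were sorted on day 7, cultured for 3 more days, and exposed to Cre recombinase gesicles (10 µL per well) for 12 h. Cells that had become tdTomato+ were sorted again 48 h later, expanded with weekly passage at confluency in a low oxygen incubator, and sampled at week 1 or week 4. Thus the wt/wt controls of both weeks also received Cre and carried the recombined reporter. Another 6 libraries from Pot1a flox/flox cells treated in the same way and labelled Δ/Δ (3 per week) served for comparison, and the 6 freshly sorted in vivo libraries were not used here. Because adherent cells were sorted, sorted again and then passaged, the libraries represent outgrowing stromal cells rather than marrow as a whole.

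MSCs of the marrow are precursors of bone-forming osteoblasts, of marrow adipocytes and of cartilage cells, and they surround blood vessels where they supply blood stem cells with signals such as the chemokine CXCL12 and stem cell factor. Osteoblast commitment is driven by the transcription factors RUNX2 and Osterix (Sp7), after which cells lay down collagen I, produce alkaline phosphatase and, late, secrete mineral-binding proteins. Cells that are passaged in culture can divide more slowly with time, and the expression of cell cycle genes follows the share of dividing cells.

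The wt/wt libraries held 26406407 to 32507056 counts at week 1 and 12807832 to 28642685 at week 4. Replicate 1 of week 4 stood apart: it was the shallowest, its correlation with the other week 4 libraries was 0.969 and 0.971 (r of log2 CPM across tested genes) against 0.988 to 0.991 for the remaining pairs of the same week, and Xist was at 10.7 CPM (read counts scaled to the library total, TMM-normalised) there against 17.8 to 28.2 in the other libraries. Replicate 3 of week 1 stood apart in interferon-response genes, as given below. The mesenchymal genes Pdgfrb (358 to 857 CPM), Prrx1 (65.1 to 137 CPM) and Cxcl12 (2738 to 8055 CPM) were detected in all 6 libraries, whereas markers of other cell types were low: no erythroid or lymphoid marker reached 1 CPM, the endothelial genes Erg, Sox17 and Cldn5 had no count in any of the 6 libraries, and the macrophage genes C1qa, C1qb, C1qc, Tyrobp and Aif1 had none either. The summed level of 15 macrophage markers was nevertheless 12.1 to 14.4 CPM at week 1 and 18.7 to 26.1 CPM at week 4, carried at week 4 mostly by Lyz2, a lysozyme gene (0.804, 0.897 and 0.804 CPM at week 1, 17.3, 12.5 and 11.2 CPM at week 4), and its part in the results below was not tested. Neural markers summed to 6.79 to 7.73 CPM and then 14.5 to 21.7 CPM, mostly S100b, with Sox10 at 0. Epithelial markers summed to 62.6 to 70.8 CPM and then 14.4 to 15.3 CPM, most of it Krt19, a keratin gene. The labels give no day, run or batch for a library, so the week of culture and any run that went with it cannot be told apart. In a bulk sample, fewer cells of a type and less RNA per cell cannot be told apart either.

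Of 24421 genes in the table, 13169 had enough counts to be tested, and 4483 differed between the weeks at an adjusted p below 0.05 (edgeR quasi-likelihood F test, Benjamini-Hochberg). At week 4, 2357 genes were higher (17.9% of those tested) and 2126 were lower (16.1%), and the median log2 fold change of all tested genes was -0.01. A change of at least 2-fold was seen in 991 of the higher genes (7.53%) and 813 of the lower genes (6.17%). In 4336 of the 4483 called genes the 3 values of week 1 and the 3 of week 4 did not overlap, as in 5757 of all 13169 tested genes. The test itself favours genes without overlap, so this count adds no support to the calls. The lists of genes with related roles moved unevenly, as the plot of list shares shows. Each list count below stands against the 17.9% higher and 16.1% lower of all tested genes. Counts of 3 or fewer members in a list often moved by more than 1.5 times when single libraries were left out. Such counts are given below as description only.

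**Figure D1:**
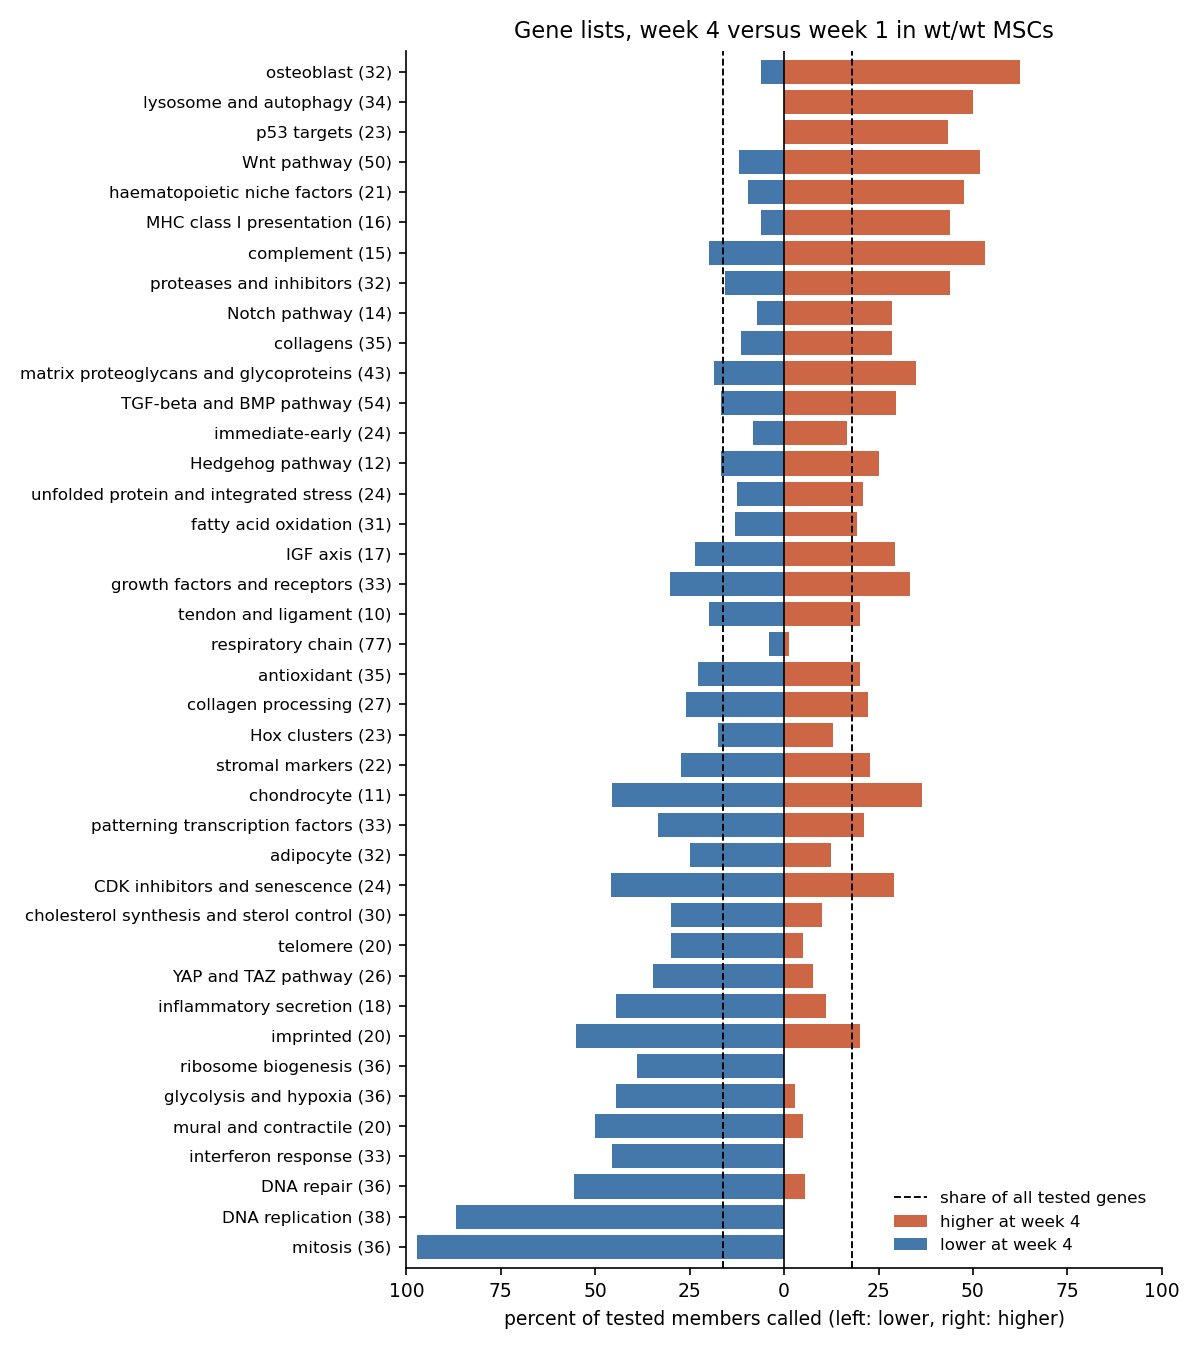
Share of the tested members of each gene list that was called higher (right, orange) or lower (left, blue) at week 4 than at week 1 in wt/wt MSCs, in percent, with the number of tested members in parentheses and only lists of at least 10 tested members drawn. Dashed lines mark the shares over all tested genes (17.9% higher and 16.1% lower). Osteoblast genes lie at the top (20 of 32 higher) and mitosis genes at the bottom (35 of 36 lower).

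Among well expressed genes (mean log2 CPM of at least 4), the greatest increases included bone matrix and lipid carrier genes. Ibsp, encoding bone sialoprotein, a mineral-binding protein of bone matrix, was at 191, 173 and 232 CPM at week 1 and 6031, 3217 and 3974 CPM at week 4, a 22.2-fold increase (log2 fold change 4.47 ± 0.40 SE, n = 3 per week, edgeR adjusted p = 4.16e-06). Panx3, a pannexin channel gene of osteoblasts and chondrocytes, rose 22-fold, from 10.1, 9.09 and 10.3 CPM to 251, 193 and 206 CPM. Dmp1, encoding dentin matrix protein 1 of late osteoblasts and osteocytes, rose 18.8-fold, from 11.9, 17.3 and 13.8 CPM to 231, 342 and 231 CPM. Replicate 1 held the highest week 4 value for Ibsp and Panx3, and replicate 2 for Dmp1. Apoe, encoding the lipid carrier apolipoprotein E, rose from 12.7, 8.81 and 9.22 CPM to 203, 176 and 128 CPM (16.4-fold). Icam1, a leukocyte adhesion molecule, rose 12.8-fold, Serpinb2, a plasminogen activator inhibitor, 9.61-fold, and Cd200, an immune inhibitory surface ligand, 9.41-fold. Prss35, a serine protease relative, Lifr, the receptor of leukaemia inhibitory factor, Aldh1a2, a retinoic acid-synthesising enzyme, and Ptgis, prostacyclin synthase, rose between 8.27-fold and 9.07-fold. These 11 genes were chosen among those without overlap between the weeks, so their separation is no result.

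The greatest decreases among well expressed genes included cell cycle genes and genes of the cytoskeleton and of growth factor signalling. Gm2115 fell from 58.3, 63.4 and 69.9 CPM to 3.74, 3.81 and 8.94 CPM (11.4-fold lower). Myh10, the non-muscle myosin IIB heavy chain, fell from 125, 178 and 146 CPM to 12.2, 22.5 and 21.1 CPM (7.98-fold lower). Lgr5, a receptor for the Wnt-enhancing R-spondins that marks stem cells of several epithelia, fell from 45.2, 37.2 and 48.8 CPM to 5.98, 5.83 and 7.48 CPM (6.77-fold lower). These falls, too, were chosen among genes without overlap between the weeks. Slc4a4, a bicarbonate cotransporter, was 7.08-fold lower, 2810417H13Rik (Pclaf in the RefSeq table), a PCNA-binding replication factor, 6.7-fold, Lmnb1, the nuclear lamina protein lamin B1, 6.39-fold, Rgs4, a regulator of G protein signalling, 6.26-fold, and Sulf1, a heparan sulfate sulfatase, 5.78-fold. Smoc1, a secreted calcium-binding matrix protein, and Synpo2, an actin-binding protein, were 5.31-fold and 5.24-fold lower. Thbs4, a thrombospondin of tendon and muscle, and Bmp3, a BMP family member made by osteoblasts, were singled out after their values were seen. Neither had a count in any week 1 library, and they were at 15.1, 30.4 and 28.2 CPM and at 22.2, 26.9 and 17.9 CPM at week 4. Their week 4 means (24.6 and 22.3 CPM) were at least 210.0-fold and at least 190.8-fold the 3 counts per library that a count of 0 allows.

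Proliferation genes fell together. In the mitosis list, 35 of 36 tested members were lower at week 4 and none higher, against 16.1% of all tested genes lower, and the median log2 fold change was -2.14. Kif23, a kinesin of the spindle midzone needed for cytokinesis, had the largest fall of the list, from 48.5, 44.8 and 54.6 CPM to 8.0, 8.48 and 8.97 CPM (log2 fold change -2.53 ± 0.14, adjusted p = 1.18e-07 by edgeR). Mki67, which encodes the proliferation antigen Ki-67, fell from 79.8, 103 and 93.0 CPM to 12.6, 21.7 and 13.6 CPM. Mybl2, a transcription factor of the complex that activates cell cycle genes, fell from 20.1, 24.4 and 21.5 CPM to 5.01, 3.5 and 3.26 CPM, and Cenpf, a kinetochore protein, from 41.0, 41.2 and 43.6 CPM to 9.12, 7.72 and 7.41 CPM. These members were picked for the size of their fall. The one member that was not called was Pttg1, which encodes securin, at 23.6, 18.6 and 18.7 CPM and then 30.6, 22.2 and 18.6 CPM.

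Since the mitosis list moved most uniformly, the promoter windows of the 4 members with the largest fall are shown to give the sequence in front of genes that fell together (RefSeq windows on GRCm38.p6, from 250 bases before to 50 bases after an annotated start, gene strand, 5′ to 3′). Capitals mark CCAAT and TTTGAA on either strand, so that ATTGG and TTCAAA are their reverse forms: CCAAT is the letter string bound by the factor NF-Y, and TTTGAA is the core of the cell cycle homology region. Kif23 lies on the minus strand at chr9:61946750-61947049, Mki67 on the minus strand at chr7:135716330-135716629, Mybl2 on the plus strand at chr2:163054385-163054684 and Cenpf on the minus strand at chr1:189688037-189688336.
Kif23: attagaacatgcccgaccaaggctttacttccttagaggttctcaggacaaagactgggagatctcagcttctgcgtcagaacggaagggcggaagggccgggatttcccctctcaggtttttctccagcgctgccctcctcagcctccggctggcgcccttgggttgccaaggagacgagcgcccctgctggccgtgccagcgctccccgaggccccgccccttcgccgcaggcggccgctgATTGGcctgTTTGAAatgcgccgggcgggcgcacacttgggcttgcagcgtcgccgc
Mki67: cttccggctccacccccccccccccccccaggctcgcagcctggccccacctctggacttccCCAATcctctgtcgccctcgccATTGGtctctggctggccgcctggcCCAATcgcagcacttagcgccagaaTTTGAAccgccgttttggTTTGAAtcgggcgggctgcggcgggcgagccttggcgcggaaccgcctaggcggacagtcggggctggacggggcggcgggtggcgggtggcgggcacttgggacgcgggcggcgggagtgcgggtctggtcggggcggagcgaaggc
Mybl2: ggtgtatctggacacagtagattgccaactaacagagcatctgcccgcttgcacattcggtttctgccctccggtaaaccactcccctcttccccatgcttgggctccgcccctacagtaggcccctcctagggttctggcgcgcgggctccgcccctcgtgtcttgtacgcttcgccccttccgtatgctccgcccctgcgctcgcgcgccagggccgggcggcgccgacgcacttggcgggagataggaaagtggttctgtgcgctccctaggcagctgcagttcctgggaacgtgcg
Cenpf: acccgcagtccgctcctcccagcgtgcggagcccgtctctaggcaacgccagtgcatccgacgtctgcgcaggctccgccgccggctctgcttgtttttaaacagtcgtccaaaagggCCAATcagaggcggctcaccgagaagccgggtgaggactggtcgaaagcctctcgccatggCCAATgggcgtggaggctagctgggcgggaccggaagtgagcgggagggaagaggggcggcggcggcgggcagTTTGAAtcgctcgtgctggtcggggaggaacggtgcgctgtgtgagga

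The Kif23 window held 1 CCAAT and 1 TTTGAA, that of Mki67 held 3 and 2, that of Cenpf held 2 and 1, and that of Mybl2 held neither. Of 36 mitosis members, 30 had a window in the table, and 22 of these held CCAAT (73.3%), 21 held TTTGAA (70.0%) and 19 held both (63.3%). Among the 9980 tested genes with a window, 38.9% held CCAAT, 11.5% held TTTGAA and 4.89% held both, and over all 27025 genes with a window the shares were 37.9%, 18.1% and 7.12%. Where a gene had several windows, the first listed was read. A match is a string of letters in this window and no measure of binding. TTTCCCGC, a form of the E2F site, was found in none of the 30 mitosis windows and in 6 of the 31 windows of DNA replication members (19.4%), against 2.10% of tested genes.

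Genes of DNA replication followed. In this list 33 of 38 members were lower and none higher (median log2 fold change -1.30). Mcm10, which helps to start replication forks, fell from 20.4, 21.7 and 21.3 CPM to 5.08, 4.53 and 3.19 CPM, Cdc6, a loader of the replicative helicase, fell 4.80-fold, and Orc1, a subunit of the origin recognition complex, 4.77-fold. The abundant ribonucleotide reductase subunit Rrm2 was 2.00-fold lower. In the DNA repair list, 20 of 36 were lower and 2 higher, and those with the largest fall act in homologous recombination or crosslink repair: Fanca (5.31-fold lower), Exo1 (4.88-fold) and Rad54l (3.94-fold). Of 20 telomere genes, 6 were lower (30%) and 1 higher (5%), against 16.1% and 17.9% of all tested genes. Pot1a itself, a telomere single strand-binding protein and the gene under study, was at 34.3, 33.8 and 36.6 CPM at week 1 and 37.8, 33.7 and 33.2 CPM at week 4 (log2 fold change 0.00 ± 0.11). Rtel1, a helicase that unwinds telomere loops, fell 1.52-fold. Without replicate 3 of week 4 the count of lower telomere genes was 3.

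In the list of CDK inhibitors and senescence-related genes, 7 of 24 members were higher (29.2%) and 11 lower (45.8%). The shares of all tested genes were 17.9% and 16.1%. Cdkn1a, which encodes the CDK inhibitor p21, rose from 216, 220 and 183 CPM to 532, 376 and 415 CPM (2.13-fold, adjusted p = 0.00019 by edgeR), and Cdkn2b, encoding p15, rose 1.90-fold. Cdkn1c, encoding the imprinted inhibitor p57, fell from 14.5, 13.7 and 15.2 CPM to 1.79, 0.852 and 1.42 CPM. Cdkn2a, the locus of p16 and p19ARF, stayed near the limit of detection at 1.97, 0.975 and 0.574 CPM and then 0.971, 1.57 and 1.31 CPM. The inhibitors thus moved in different directions. Lmnb1 fell from 49.1, 45.9 and 34.3 CPM to 4.78, 8.43 and 6.81 CPM, and E2f7, a repressor of E2F targets that is itself expressed in S phase, fell 6.18-fold. Ccnd2, encoding cyclin D2, rose 2.02-fold. Of 23 genes that p53 is known to activate, 10 were higher (43.5%) and none lower (median log2 fold change 0.43). Fas, the death receptor, rose from 12.6, 10.9 and 11.3 CPM to 43.0, 31.4 and 31.9 CPM (3.04-fold), and Trp53inp1 rose 2.46-fold.

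Bone-forming cell genes rose together. In the osteoblast list, 20 of 32 tested members were higher and 2 lower (median log2 fold change 0.90), and 16 rose by at least 2-fold, against 7.53% of tested genes. Some members were near 0 at week 1. When genes needed 10 counts in every wt/wt library to be tested, 15 were higher and the median was 0.56. Among regulators, Sp7, which encodes Osterix, was at 115, 105 and 102 CPM at week 1 and 255, 218 and 243 CPM at week 4 (2.22-fold, adjusted p = 5.66e-06 by edgeR). Runx2 was not called, with 65.4, 56.5 and 60.5 CPM and then 36.8, 77.0 and 83.8 CPM, the low week 4 value being that of replicate 1. Alpl, encoding the alkaline phosphatase of mineralising cells, rose from 571, 555 and 564 CPM to 3012, 3623 and 3185 CPM (5.81-fold, log2 fold change 2.54 ± 0.13). Pth1r, the parathyroid hormone receptor, rose 7.36-fold, from 62.8, 63.6 and 53.3 CPM to 436, 472 and 415 CPM, and Phex, a phosphate-regulating peptidase of osteocytes, 7.97-fold. The replicates of each week lay close together for Alpl and Pth1r.

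Of the major bone matrix proteins, collagen I was less uniform. Col1a1 was at 4156, 6839 and 4856 CPM at week 1 and at 3888, 10762 and 10121 CPM at week 4 and was not called (log2 fold change 0.64 ± 0.34, adjusted p = 0.163 by edgeR). Replicate 1 was the low value of week 4, and without it the log2 fold change was 0.98 with an adjusted p of 0.00709. Col1a2 rose 1.47-fold (adjusted p = 0.0467), and without any single library except replicate 1 of week 4 it was no longer called (adjusted p = 0.0611 to 0.183). Spp1, encoding osteopontin, was already at 9676, 11913 and 11789 CPM at week 1 and was at 18823, 13400 and 13220 CPM at week 4 (adjusted p = 0.12), with no overlap between the weeks. Ibsp, Dmp1 and Spp1 are neighbours on mouse chromosome 5 (GRCm38.p6), Dmp1 at chr5:104197575-104214102, Ibsp at chr5:104299287-104311472 and Spp1 at chr5:104435111-104441053, and their fold changes differed widely. The osteocalcin genes Bglap, Bglap2 and Bglap3 were at 0.078 to 0.596 CPM at week 1 and at 4.48 to 10.1 CPM at week 4, and all were called higher. These near-identical copies could share reads, so the split between them is uncertain. The members that fell were Ank, a transporter of the mineralisation inhibitor pyrophosphate (186, 212 and 192 CPM to 45.1, 121 and 75.8 CPM), and Slc20a1, a phosphate carrier (1.55-fold lower).

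**Figure D2:**
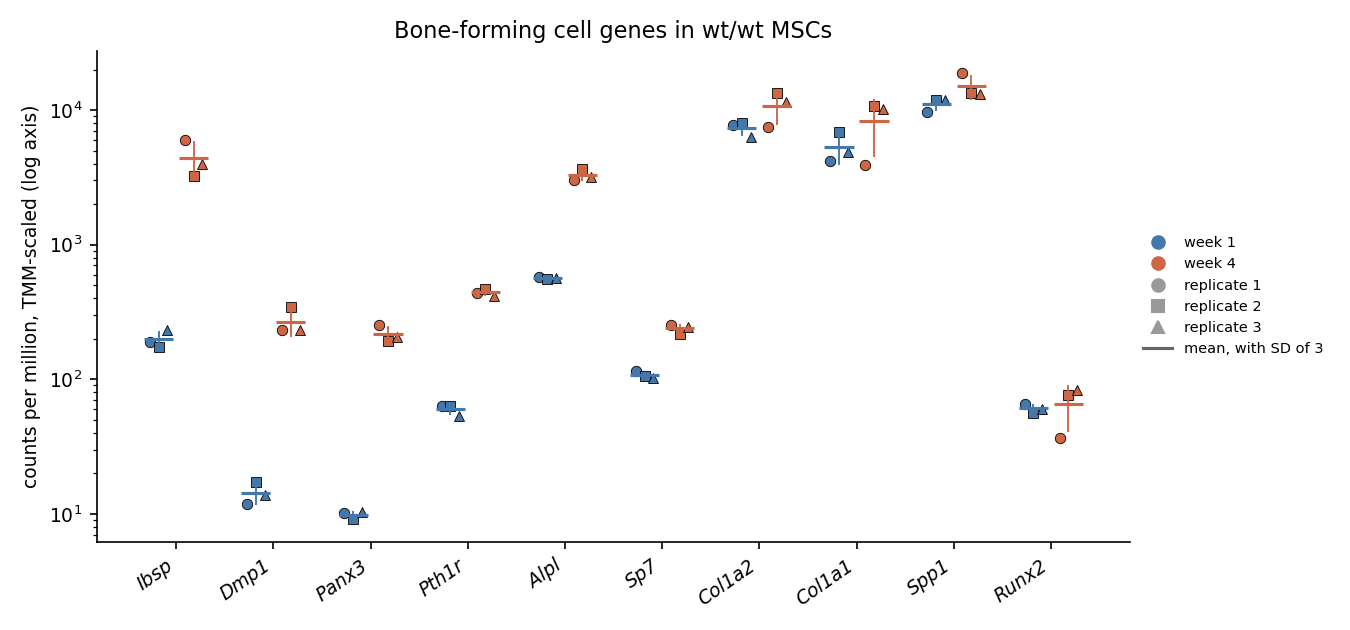
Expression in CPM (TMM-scaled, log axis) of 10 bone-forming cell genes in each wt/wt library at week 1 (blue) and week 4 (orange), with a marker shape for each replicate number and a bar for the mean with the SD of 3 libraries. Ibsp, Dmp1 and Panx3 show the widest gap between the weeks, Spp1 lies at 9676 CPM or more in all 6 libraries, and replicate 1 of week 4 is the low circle for Col1a1 and Runx2.

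Genes of the other mesenchymal lineages did not follow this pattern. Of 11 tested chondrocyte genes, 4 were higher and 5 lower. All 4 higher members rose by at least 2-fold, among them Pth1r, given above, and 3 of the lower members fell by at least 2-fold. Col2a1, the main collagen of cartilage, was abundant at week 1 (6377, 7818 and 5776 CPM) and fell to 1199, 3440 and 3015 CPM at week 4 (2.61-fold lower, adjusted p = 0.00345 by edgeR). Sox9, the master regulator of cartilage, fell 1.44-fold, from 35.7, 29.7 and 29.6 CPM to 21.1, 19.9 and 25.1 CPM. The call on Sox9 was lost without replicate 1 of week 1 (adjusted p = 0.0677) or replicate 2 of week 4 (adjusted p = 0.0697). Col10a1, a collagen of hypertrophic chondrocytes, was not called (23.1, 19.9 and 24.9 CPM and then 14.1, 20.1 and 21.5 CPM). Of 10 tendon and ligament genes, 2 were higher and 2 lower (20% each), near the 17.9% and 16.1% of all tested genes. Tnc, encoding the matrix protein tenascin C, rose 4.65-fold, from 1106, 2215 and 1680 CPM to 4207, 10251 and 8774 CPM.

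In the adipocyte list 4 of 32 members were higher (12.5%) and 8 lower (25%), against 17.9% and 16.1% of all tested genes (median log2 fold change -0.21). Pparg, the master regulator of fat cells, fell from 131, 135 and 138 CPM to 74.5, 70.9 and 57.5 CPM (log2 fold change -0.99 ± 0.10, adjusted p = 1.31e-05 by edgeR). Lpl, lipoprotein lipase, fell 2.29-fold, Fabp4, a fatty acid carrier of adipocytes, 3.28-fold, from 74.9, 47.5 and 49.0 CPM to 11.4, 20.3 and 20.2 CPM, and Ebf2, a transcription factor of brown and beige precursors, 2.41-fold. Adiponectin (Adipoq, 17.4, 9.67 and 17.0 CPM, then 11.1, 15.3 and 9.11 CPM) and the fatty acid translocase Cd36 (10.3, 6.75 and 11.7 CPM, then 3.74, 5.52 and 4.47 CPM, adjusted p = 0.0608) were not called. Cd36 was called with DESeq2 (adjusted p = 0.0198), with no count filter (0.0409), with only the 6 wt/wt libraries (0.0174, or 0.0409 with the replicate block) and after thinning (0.0369). Among the members that rose were Apoe, given above (16.4-fold), and Cebpd, an early adipogenic factor that is also induced by cytokines (2.38-fold). Genes of mural and contractile cells fell in 10 of 20 cases and rose in 1, with Itga8, an integrin of vascular smooth muscle and fibroblasts, 9.36-fold lower and the abundant smooth muscle actin gene Acta2 1.6-fold lower (7941, 6475 and 6624 CPM, then 3682, 5170 and 4331 CPM). With only the 6 wt/wt libraries, 5 genes of the mural list were lower, and with the replicate block in those libraries 4 were and Acta2 was not called (adjusted p = 0.0647 by edgeR). Of 4 tested skeletal muscle genes, Acta1, encoding skeletal actin, was called, and fell from 79.3, 86.5 and 56.4 CPM to 2.39, 2.33 and 4.79 CPM, and with the replicate block 1 further gene was higher.

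Neither gene used to sort the cells was called. Pdgfra, which encodes PDGFRα, was at 103, 115 and 124 CPM and then 69.1, 109 and 103 CPM (adjusted p = 0.253 by edgeR). Itgav, which encodes CD51, was at 358, 483 and 525 CPM and then 136, 300 and 372 CPM (adjusted p = 0.106 by edgeR). With the replicate block it was called lower (log2 fold change -0.86, adjusted p = 0.0276 by edgeR), as it was without replicate 3 of week 4 (adjusted p = 0.0478). The perivascular markers Nes (70.5, 73.6 and 66.2 CPM, then 19, 48.5 and 53.8 CPM) and Cspg4, which encodes NG2 (33.2, 45.0 and 40.3 CPM, then 6.5, 55.0 and 43.9 CPM), were not called, and replicate 1 held the lowest value at week 4 for both. In the list of stromal markers, 5 of 22 were higher (22.7%) and 6 lower (27.3%), against 17.9% and 16.1% of all tested genes. Lepr, the leptin receptor that marks perivascular stromal cells of adult marrow, rose from 6.82, 5.81 and 7.54 CPM to 42.7, 46.0 and 52.9 CPM (7.02-fold). Nt5e, which encodes the MSC marker CD73, rose 2.79-fold, whereas Eng, which encodes the MSC marker endoglin (CD105), fell from 33.1, 42.2 and 45.5 CPM to 3.44, 6.19 and 5.46 CPM (7.87-fold lower). Mcam, encoding CD146, fell 2.54-fold and the BMP antagonist Grem1 fell 6.02-fold.

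Of 21 factors by which stromal cells support haematopoiesis, 10 were higher and 2 lower. Cxcl12 rose from 3573, 2738 and 3671 CPM to 6339, 7868 and 8055 CPM (2.23-fold, adjusted p = 0.000104 by edgeR), and Vcam1, an adhesion molecule for blood cells, rose 1.72-fold. Kitl, which encodes stem cell factor (112, 115 and 150 CPM, then 164, 121 and 138 CPM), Angpt1 (54.7, 48.1 and 64.4 CPM, then 47.1, 41.2 and 74.1 CPM) and Il7, a growth factor of B cell precursors (11.3, 11.1 and 16.2 CPM, then 15.2, 12.1 and 18.4 CPM), were not called, and their values overlapped between the weeks. Bmp4 rose 6.13-fold, from 44.5, 40.6 and 46.7 CPM to 347, 262 and 201 CPM, and Esm1, a secreted proteoglycan, 5.89-fold. Of 15 tested complement genes, 8 were higher (53.3%) and 3 lower (20%), against 17.9% and 16.1% of all tested genes (median log2 fold change 0.86). Cfb, factor B of the alternative pathway, rose 5.73-fold, and Serping1, the C1 inhibitor, rose from 314, 259 and 277 CPM to 1257, 1125 and 992 CPM. The members that fell included Cd59a, a membrane inhibitor of complement lysis (6.40-fold lower), and Masp1, a protease of the lectin pathway (4.49-fold lower).

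**Figure D3:**
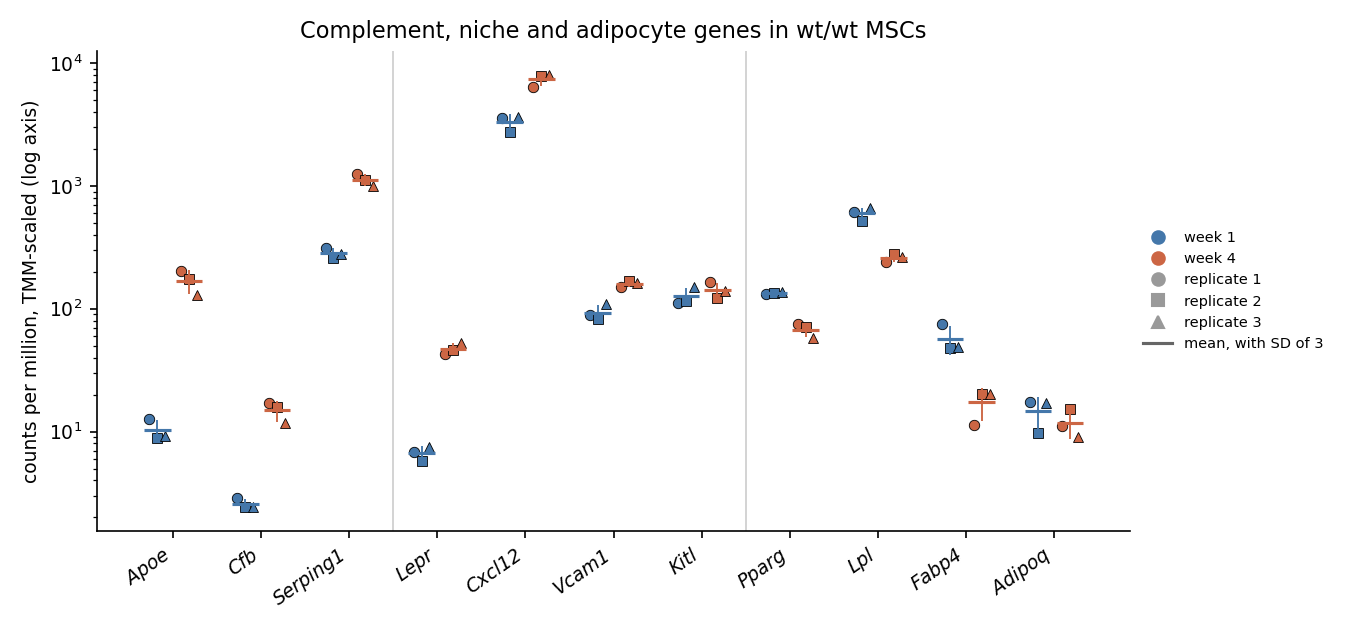
Expression in CPM (TMM-scaled, log axis) of lipid and complement genes (left), niche factors (middle) and adipocyte genes (right) in each wt/wt library at week 1 (blue) and week 4 (orange), with a marker shape for each replicate number and a bar for the mean with the SD of 3 libraries. Week 4 lies above week 1 for Apoe to Vcam1, both weeks overlap for Kitl and Adipoq, and week 4 lies below week 1 for Pparg, Lpl and Fabp4.

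Matrix genes moved in both directions. Among 43 proteoglycans and glycoproteins, 15 were higher (34.9%) and 8 lower (18.6%), against 17.9% and 16.1% of all tested genes. Dcn, encoding decorin, a collagen-binding proteoglycan, rose from 2.03, 1.29 and 1.34 CPM to 33.1, 16.6 and 17.7 CPM (14.2-fold). Fbln5 and Mfap5, both of elastic fibres and microfibrils, rose 6.28-fold and 5.83-fold. In the other direction, Aspn, encoding asporin, a relative of decorin, fell from 58.8, 50.9 and 82.5 CPM to 1.79, 2.02 and 5.18 CPM (20.4-fold lower), and Fbln2, a fibulin, fell 3.01-fold. Without replicate 2 of week 1 the count of lower members was 5. Of 35 collagens, 10 were higher (28.6%) and 4 lower (11.4%), and the count of higher collagens rested on replicate 1 of week 4, since 16 were called without it. When genes needed 10 counts in every wt/wt library to be tested, 6 collagens were higher. With the replicate block, 7 collagens were lower. Col8a1, a short-chain collagen of vessel walls, rose 1.69-fold, and Col7a1, of anchoring fibrils, fell 2.82-fold. Of 27 enzymes that process collagen, 6 were higher (22.2%) and 7 lower (25.9%), near the shares of all tested genes (17.9% and 16.1%). Bmp1, the procollagen C-proteinase, rose 2.08-fold and Loxl3, a crosslinking lysyl oxidase, fell 1.90-fold, from 805, 992 and 790 CPM to 452, 458 and 449 CPM. Of 32 proteases and inhibitors, 14 were higher (43.8%) and 5 lower (15.6%), against 17.9% and 16.1% of all tested genes. The lower share thus lay near that of all tested genes. Mmp13, the collagenase of bone and cartilage, rose from 297, 299 and 316 CPM to 1365, 1461 and 1746 CPM (5.01-fold), and Fap, fibroblast activation protein, 6.01-fold. Serpinb2, named above, rose from 4.71, 10.3 and 6.62 CPM to 87.9, 32.9 and 86.7 CPM. The count of lower proteases and inhibitors was 2 without replicate 2 of week 1, and 3 without replicate 3 of week 1 or replicate 2 of week 4.

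Among signalling pathways, Wnt genes rose most often, with 26 of 50 higher and 6 lower (median log2 fold change 0.60). The extracellular inhibitors Wif1, which binds Wnt proteins (20.5, 24.1 and 24.5 CPM, then 176, 186 and 165 CPM, 7.64-fold), and Notum, which removes their lipid (6.78-fold), rose, as did Tcf7, a nuclear effector that is also a target (6.14-fold). The receptors Lgr5 and Ror2, a receptor for Wnt5a, fell, Ror2 from 25, 28.8 and 22.9 CPM to 4.04, 6.55 and 5.25 CPM. Of 54 genes of the TGFβ and BMP pathways, 16 were higher (29.6%) and 9 lower (16.7%), against 17.9% and 16.1% of all tested genes. The lower share thus lay near that of all tested genes. Gdf10, a BMP-like ligand, rose from 0.655, 0.702 and 0.306 CPM to 44.7, 40.9 and 34.0 CPM, and the BMP antagonist Nog rose 5.57-fold. Tgfbi, a matrix protein induced by TGFβ, fell 5.75-fold, and Eng, a co-receptor of this pathway, fell as given above. The named genes of these pathways moved in both directions and were picked for the size of their change.

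Of 33 growth factors and receptors, 11 were higher (33.3%) and 10 lower (30.3%), against 17.9% and 16.1% of all tested genes, and 6 were lower without replicate 2 of week 1. Vegfc, a lymphatic growth factor, rose 4.52-fold, and Fgfr3, a receptor of bone growth, rose from 10.2, 10.0 and 7.96 CPM to 14.6, 54.3 and 52.3 CPM, the low week 4 value being that of replicate 1. Of 17 genes of the IGF axis, 5 were higher (29.4%) and 4 lower (23.5%), with Irs1, an insulin receptor substrate, 3.22-fold higher and Irs2 2.42-fold lower. Of 26 YAP and TAZ pathway genes, 2 were higher and 9 lower, Ankrd1 falling from 179, 349 and 379 CPM to 120, 61.4 and 105 CPM and Axl, a receptor tyrosine kinase, from 996, 1275 and 1221 CPM to 377, 424 and 497 CPM. Of 14 Notch genes, 4 were higher (28.6%) and 1 lower (7.14%), and of 12 Hedgehog genes, 3 (25%) and 2 (16.7%). Without replicate 1 of week 4, 7 Notch and 5 Hedgehog genes were higher, without any other single library except replicate 1 of week 1 and replicate 3 of week 4 no Notch gene was lower, and without replicate 2 or 3 of week 1 the count of lower Hedgehog genes was 1. Among 24 immediate-early genes, 4 were higher (16.7%, near the share of all tested genes) and 2 lower (8.33%). The count of lower genes ran from 0 to 9 as single libraries were left out and was 4 with the replicate block. Fos was at 38.1, 117 and 95.8 CPM at week 1 and at 288, 274 and 234 CPM at week 4.

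Immune genes divided by class. In the interferon-response list, 15 of 33 tested members were lower at week 4 and none higher (median log2 fold change -1.36), but the week 1 libraries were far apart. Usp18, an inhibitor of interferon receptor signalling that is itself induced by interferon, was at 20.01, 8.46 and 71.8 CPM at week 1 and at 2.32, 0.628 and 1.28 CPM at week 4 (log2 fold change -4.66 ± 1.09, adjusted p = 0.00563 by edgeR). Rtp4 was at 17.7, 6.16 and 54.2 CPM and then 2.84, 1.35 and 1.56 CPM, and Oasl2, of the oligoadenylate synthetase family, at 16.2, 13.8 and 82.7 CPM and then 5.75, 3.19 and 4.75 CPM. In each of these genes, replicate 3 of week 1 was the highest library. Over the 33 genes, 29 had their highest value in replicate 3 of week 1 and 4 in replicate 1 of week 1. The summed level was 798, 574 and 1690 CPM at week 1 and 563, 504 and 517 CPM at week 4. Without replicate 3 of week 1 the count fell to 4 of 33 and the median to -0.43, and Oasl2 was no longer called (adjusted p = 0.0762). The count was 7 without replicate 2 and 8 without replicate 3 of week 4, 10 without replicate 1 of week 4, and 13 and 19 without replicates 1 and 2 of week 1. The interferon regulator Irf7 (16.5, 11.9 and 69.6 CPM, then 11.7, 8.97 and 11.5 CPM) and the membrane protein Bst2 (30.2, 22.9 and 98.3 CPM, then 16.6, 20.1 and 22.3 CPM) were not called. Bst2 was called without replicate 1 or 2 of week 1 (adjusted p = 0.0412 and 0.0238).

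**Figure D4:**
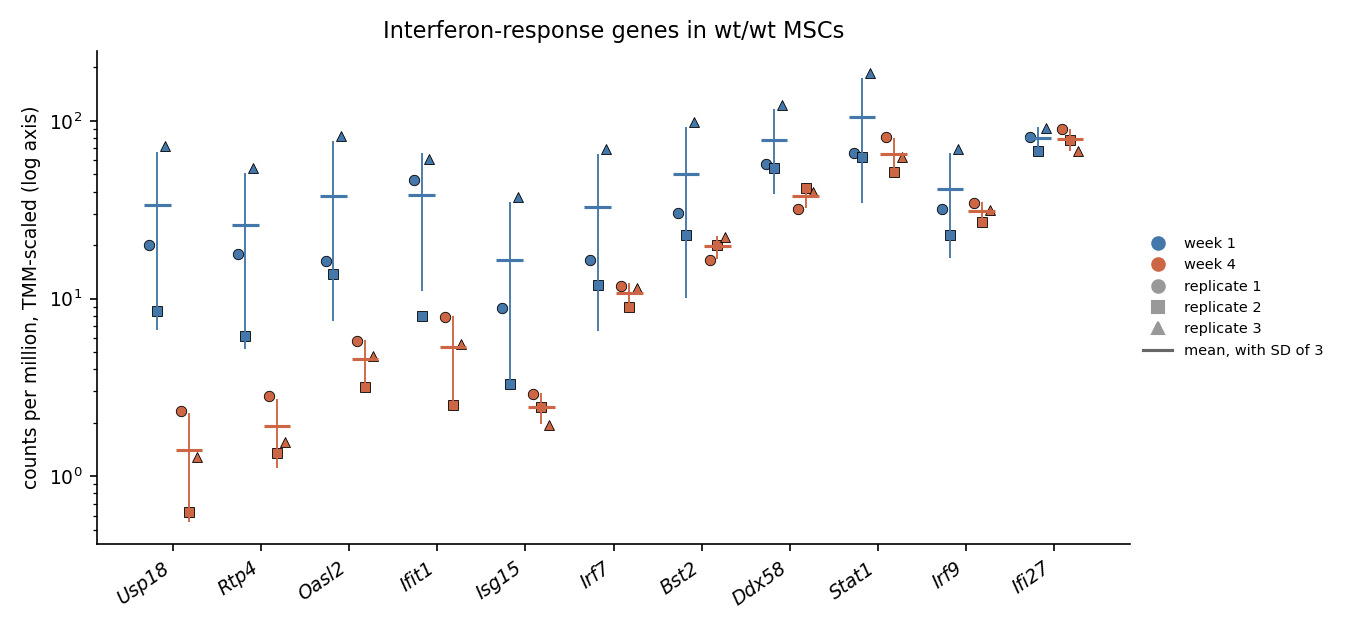
Expression in CPM (TMM-scaled, log axis) of 11 interferon-response genes in each wt/wt library at week 1 (blue) and week 4 (orange), with a marker shape for each replicate number and a bar for the mean with the SD of 3 libraries (an SD limit that would fall near or below 0 is cut short). The triangle of replicate 3 of week 1 is the highest point for every gene drawn, and week 4 lies lowest relative to week 1 for Usp18 and Rtp4.

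Antigen presentation did not fall with the interferon-response genes. Of 16 tested genes of MHC class I presentation, 7 were higher and 1 lower (median log2 fold change 0.52). H2-D1, a classical class I heavy chain, rose from 255, 247 and 287 CPM to 483, 416 and 375 CPM (1.61-fold), although class I genes resemble each other closely and could share reads. Psmb9, an immunoproteasome subunit, rose 2.10-fold. Of 18 tested genes of inflammatory secretion, 2 were higher and 8 lower. Icam1 rose from 5.84, 5.66 and 6.62 CPM to 87.2, 69.5 and 75.5 CPM, and Cxcl14, a chemokine, from 84.6, 79.1 and 85.3 CPM to 431, 481 and 550 CPM (5.87-fold). Ptgs2, which encodes cyclooxygenase 2, fell from 68.4, 190 and 178 CPM to 23.2, 29.9 and 48.5 CPM (4.26-fold lower), and the monocyte chemokines Ccl2 and Ccl7 fell 2.97-fold and 2.46-fold.

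Metabolic genes changed by smaller steps. Of 36 genes of glycolysis and the hypoxia response, 16 were lower and 1 higher, and only 1 fell by at least 2-fold. Slc16a3, the lactate exporter, fell from 428, 498 and 377 CPM to 142, 240 and 219 CPM (2.17-fold), and Aldoc and Egln3, a glycolytic enzyme and an oxygen sensor, fell 1.98-fold and 1.94-fold. The exception was Ndrg1, a stress and differentiation gene, which rose from 8.88, 8.85 and 9.38 CPM to 44.6, 93.1 and 59.6 CPM. Of 36 ribosome biogenesis genes, 14 were lower and none higher, among them Fbl, the rRNA methylase fibrillarin, 2.12-fold lower, and Npm1, nucleophosmin, 2.00-fold lower. In the lysosome and autophagy list, 17 of 34 were higher and none lower (median log2 fold change 0.32): the cathepsin genes Ctsf and Ctsa rose 2.57-fold and 1.77-fold, and Hexa, a hexosaminidase subunit, rose 2.21-fold, from 254, 236 and 239 CPM to 597, 543 and 468 CPM. In the respiratory chain few genes moved, with 1 of 77 higher and 3 lower, against 17.9% and 16.1% of tested genes, or 2 and 6 with the replicate block. Its most abundant called member, the ATP synthase subunit Atp5b, fell 1.39-fold, a call that was not made with the replicate block in only the 6 wt/wt libraries (adjusted p = 0.0537). The count of lower respiratory genes was 7 without replicate 1 of week 4 and 5 without replicate 2 of week 1.

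Of 30 genes of cholesterol synthesis and sterol control, 3 were higher and 9 lower, with Mylip, a ubiquitin ligase induced by sterols, 3.05-fold higher. Of 31 fatty acid oxidation genes, 6 were higher and 4 lower (19.4% and 12.9%), of 24 genes of the unfolded protein and integrated stress responses, 5 and 3 (20.8% and 12.5%), and of 35 antioxidant genes, 7 and 8 (20% and 22.9%). These shares lay near the 17.9% and 16.1% of all tested genes. Without replicate 1 of week 4, 5 sterol genes were higher, and 7 fatty acid oxidation genes and 7 stress response genes were lower. Without replicate 3 of week 1, 3 stress response genes were higher. Trib3, a target of the stress factor ATF4, rose from 28.5, 20.6 and 14.3 CPM to 69.1, 63.3 and 58.4 CPM (3.01-fold), whereas Txn1, encoding thioredoxin, fell from 151, 101 and 105 CPM to 58.7, 58.5 and 57.5 CPM (2.04-fold lower).

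Of 23 tested Hox genes, which mark position along the body, 3 were higher (13%) and 4 lower (17.4%), against 17.9% and 16.1% of all tested genes. Hoxa11, of the limb, rose from 16.2, 13.1 and 11.1 CPM to 24.1, 25.8 and 22.8 CPM (1.79-fold), and Hoxc10 fell 1.53-fold. Of 33 other patterning transcription factors, 7 were higher (21.2%) and 11 lower (33.3%), with Meis1, a Hox cofactor, 3.86-fold lower. Imprinted genes, which are expressed from one parental copy and in many cases in growing tissue, fell in 11 of 20 cases and rose in 4 (median log2 fold change -0.97). H19, a non-coding RNA of fetal tissue, fell from 19.4, 11.9 and 9.49 CPM to 2.02, 3.05 and 2.20 CPM (5.57-fold lower), and Slc38a4, an amino acid transporter, from 102, 86.9 and 91.9 CPM to 20.6, 18.6 and 20.3 CPM (4.71-fold lower). Plagl1, a zinc finger factor, rose 2.28-fold. When genes needed 10 counts in every library to be tested, 6 imprinted genes were lower.

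To see which of these changes also occurred in cells labelled Δ/Δ, the same comparison was made there in the same fit, with no library in common. The counts of Pot1a did not set these cells apart. Its mean was 34.5 CPM at week 1 and 45.6 CPM at week 4 in Δ/Δ cells, against 34.9 CPM at both weeks in wt/wt cells. The paper reports a significant reduction of the mRNA after deletion, and the cause of this discrepancy was not tested. The genotype is therefore that of the labels. Of the 4483 genes called in wt/wt cells, 2730 were called in the same direction in Δ/Δ cells, 1580 were not called and 173 were called in the opposite direction. The change over time itself differed between the genotypes in 942 genes (7.15% of those tested, edgeR quasi-likelihood F test of the difference), and 645 of the 4483 called genes were among them. The fall of proliferation genes was shared: 35 of 36 mitosis genes were lower in Δ/Δ cells too, and the difference passed the test in 0 of them. The median log2 fold change of the mitosis list was -2.14 in wt/wt and -1.77 in Δ/Δ cells. Apoe (log2 fold change 4.04 in wt/wt and 3.91 in Δ/Δ cells) and Lepr (2.81 and 2.97) rose in both genotypes. In the osteoblast list, 10 of 32 members were higher and 7 lower in Δ/Δ cells, and the difference passed the test in 21. Alpl, Dmp1, Pth1r and Sp7 were called higher in Δ/Δ cells too, with smaller log2 fold changes (1.09, 1.11, 0.71 and 0.31). Other bone genes rose in wt/wt cells, were not called in Δ/Δ cells and passed the test of the difference. Panx3 and Ibsp, given next, were picked for the size of that difference. For Panx3 the log2 fold change was 4.46 ± 0.21 in wt/wt and -0.05 ± 0.19 in Δ/Δ cells (adjusted p of the difference 3.3e-06 by edgeR), and for Ibsp it was 4.47 ± 0.40 and 0.49 ± 0.35 (adjusted p of the difference 0.000428 by edgeR). Opposite calls were made for Serpinb2 and Ptprz1, a receptor phosphatase, which had log2 fold changes of 3.26 and 2.40 in wt/wt cells and of -2.17 and -1.82 in Δ/Δ cells. In the other direction, Irf7 and Bst2 rose by 3.05 and 2.93 in Δ/Δ cells. They were not called in wt/wt cells (log2 fold changes -1.6 and -1.36, adjusted p = 0.0945 and 0.0571 by edgeR). As single libraries were left out, the wt/wt value ran from -1.98 to -0.41 for Irf7 and from -1.68 to -0.43 for Bst2. Smoc1 and Angpt2, a ligand of the endothelial receptor Tie2, were called lower in wt/wt cells and higher in Δ/Δ cells. Their log2 fold changes were -2.41 and 1.83 for Smoc1, and -0.56 and 2.93 for Angpt2.

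**Figure D5:**
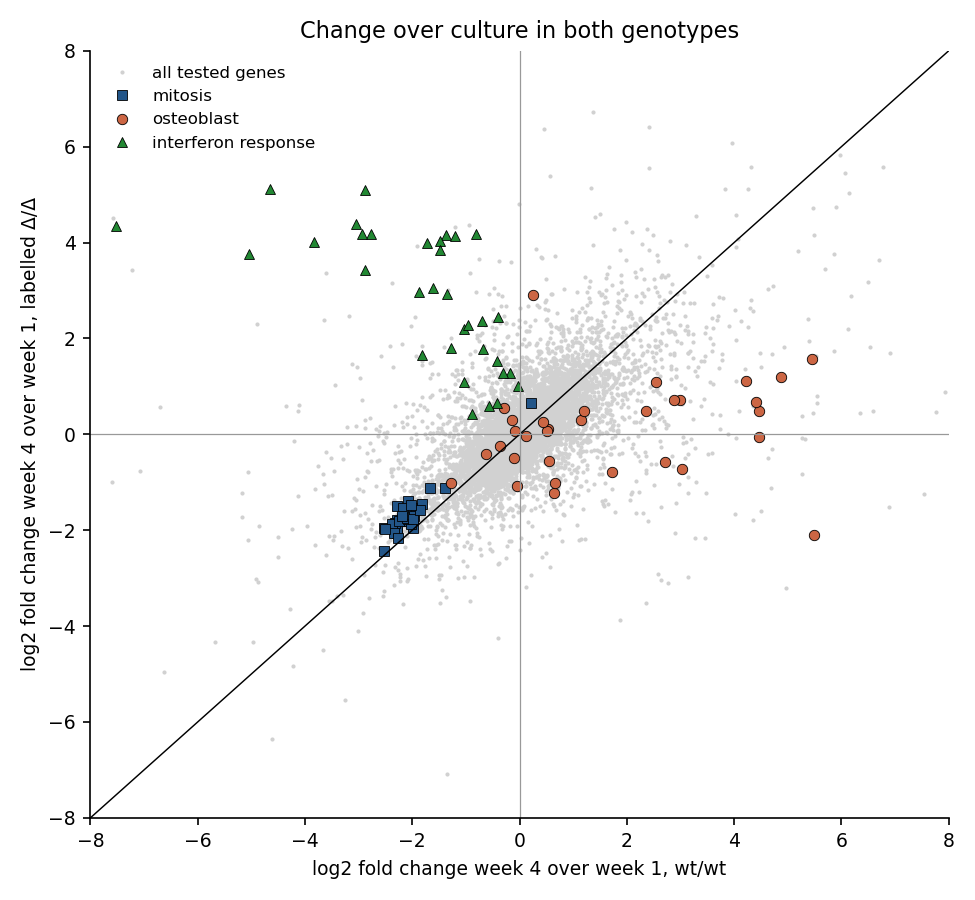
Log2 fold change of week 4 over week 1 in wt/wt cells (horizontal) against that in cells labelled Δ/Δ (vertical) for all tested genes (grey), with mitosis, osteoblast and interferon-response genes marked, the diagonal drawn for equal change and 9 genes beyond 8 log2 units off the axes. Mitosis genes lie near the diagonal at the lower left (medians -2.14 and -1.77), the osteoblast genes with the largest rise in wt/wt cells lie well below the diagonal, and interferon-response genes lie above it.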

How the data were processed

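MSCs labelled Pot1a wt/wt or Δ/Δ were profiled by RNA sequencing at week 1 and week 4 (3 libraries per group). Per the labels and the study's methods, SMART-Seq v4 cDNA was made into Nextera XT libraries, which keep no strand and carry no molecular identifiers. The authors mapped the reads to mm10 with HISAT2 2.0.4, counted them per gene symbol with featureCounts 1.6.3 and deposited raw counts, so overlapping or antisense genes and near-identical copies cannot be separated. Without molecular identifiers, floors from a count of 0 cover counting error only.

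From the counts of the 12 cultured libraries, genes passing filterByExpr of edgeR 4.0.16 (R 4.3.3, minimum count 10) were TMM-scaled and fitted with a quasi-likelihood model of 4 groups, the main test being week 4 minus week 1 in wt/wt cells and the second the difference of that change from Δ/Δ (two-sided, Benjamini-Hochberg adjusted p below 0.05). The standard error (SE) was the log2 fold change over the square root of F. Levels are TMM-scaled CPM, which are not corrected for transcript length. The test was checked on simulated counts. Alternatives were RLE scaling, library size only, other count filters, DESeq2 1.42.0, only the 6 wt/wt libraries, thinning, each library left out, stricter thresholds and a replicate block. The paper gives 3 mice per group for this sequencing. The labels number the replicates 1 to 3 in each week without saying which mouse or culture a number marks, so p-values measure the spread between these libraries. Deviations of same-numbered libraries from their group means correlated at 0.15, 0.22 and 0.21 across genes. Each lay above 0.1, so the numbers were taken to pair the libraries, from the data and not from the labels. With 3 libraries per week these values cannot establish a pairing. The pairing was used only in the replicate block, and the main test leaves it out. With 3 libraries against 3, an exact permutation test of a single value cannot go below p = 0.1.

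The 41 gene lists and 9 marker lists were chosen with earlier results of these data known, and so were the members of the comparison. Named genes were those used to sort the cells or central to the study, the 12 largest rises and 12 largest falls at a mean log2 CPM of at least 4 without overlap, up to 3 rises and 3 falls per list at a mean log2 CPM of at least 2 without overlap, and the 4 largest differences between genotypes each way. The text uses part of these. Outside this rule, Sp7, Phex, Col1a2, the Bglap genes, Pttg1, Cenpf, Rrm2, Cdkn2a, Acta2, Bmp3 and Thbs4 were chosen after their values were seen. Promoters came from RefSeq (GRCm38.p6), in which 12570 tested genes matched by symbol and 575 by synonym. Some genes that the rule named are not reported here. The table of freshly sorted cells was not used here.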

Additional observations from a re-analysis of the deposited data

Results flagged for a closer look

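The change from week 1 to week 4 differed between wt/wt cells and cells labelled Δ/Δ in 66 of the 156 tested genes that are named here (edgeR quasi-likelihood F test of the difference, adjusted p below 0.05 over all tested genes), 32 with the higher and 34 with the lower log2 fold change in wt/wt cells. The values below are the log2 fold change in wt/wt minus that in Δ/Δ cells. Interferon-response genes had the lower change in wt/wt cells: Usp18 (-9.77), Rtp4 (-7.83), Oasl2 (-7.45), Irf7 (-4.65) and Bst2 (-4.29). Replicate 3 of week 1, in which these genes were highest among the wt/wt libraries, enters each of these differences, and its part in them was not tested. Bone-forming cell genes had the higher change in wt/wt cells: Ibsp (3.98), Panx3 (4.51), Dmp1 (3.12), Pth1r (2.17), Phex (2.27), Alpl (1.44), Sp7 (0.84), Col1a1 (1.87), Col1a2 (1.11), Bglap (3.73), Bglap2 (3.69) and Bglap3 (3.88). The adipocyte genes Lpl (-2.41), Pparg (-1.56) and Ebf2 (-1.14) and the stromal, contractile or adhesion genes Aspn (-4.94), Grem1 (-4.22), Eng (-4.15), Itga8 (-3.02), Acta1 (-1.94), Pdgfra (-1.39) and Vcam1 (-1.48) had the lower change. Bmp3 (12.63) had no count in any wt/wt library of week 1, so its fitted difference depends on the prior count and is no measure of size.

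Among the remaining named genes the change was higher in wt/wt cells for Slc38a4 (0.83), Wif1 (0.99), Gdf10 (1.11), Cd200 (1.14), Icam1 (1.29), Lyz2 (1.43), Lifr (1.44), Hoxa11 (1.48), S100b (1.66), Aldoc (1.77), Nog (2.07), Nt5e (2.32), Prss35 (2.48), Tcf7 (2.75), Trib3 (2.95), Ptgis (3.23), Ndrg1 (3.52), Ptprz1 (4.22) and Serpinb2 (5.44). It was lower for Smoc1 (-4.24), Angpt2 (-3.49), Cd59a (-2.78), Cdkn1c (-2.69), Rgs4 (-2.61), Tgfbi (-2.56), Sulf1 (-2.34), Ror2 (-2.02), Myh10 (-1.86), Fos (-1.81), Synpo2 (-1.66), Irs2 (-1.63), Masp1 (-1.46), Lgr5 (-1.29), Meis1 (-1.20), Col10a1 (-1.12), Vegfc (-1.11), Fap (-1.03) and Egln3 (-1.02).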

How the results depend on the processing

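Of the 156 named genes, 123 kept their direction and their side of the threshold under all alternatives run. The 4483 genes called became 2844 at an adjusted p below 0.01 and 1804 when a 2-fold change was also asked for, and ran from 3614 to 4428 as single libraries were left out and from 3236 (only the 6 wt/wt libraries) to 4842 (replicate block) otherwise. The 942 genes whose change differed between genotypes became 508 at 0.01 and ran from 685 to 1248 as single libraries were left out. The replicate block, for which the numbers paired the libraries, gave 4842 and 1048 calls, and with 6 libraries only 3512. Apart from Itgav and the list counts given with the results, it changed no call of a named gene. The sign turned for genes near 0 that were never called: Pot1a was at 0.019456 with library size only, 0.0062907 with 10 counts in every wt/wt library, 0.00044332 with only the 6 wt/wt libraries and 0.026889 after thinning, Angpt1 at 0.03706 after thinning, and Pdgfrb at -0.010582 with the replicate block and -0.0088029 with that block in 6 libraries. As single libraries were left out, the log2 fold change ran from -0.063407 to 0.04152 for Pot1a, -0.084347 to 0.4016 for Runx2, -0.33011 to 0.1303 for Angpt1, -0.61647 to 0.32459 for Cspg4, -0.19085 to 0.75188 for Cdkn2a, -0.14704 to 0.37444 for Pdgfrb and -0.35259 to 0.20543 for Xist. Prrx1 was called lower without replicate 3 of week 4 (adjusted p = 0.0413). With the block in 6 libraries only, Acta2, Angpt2, Atp5b and Col1a2 were not called. The cause of these moves was not tested. The lowest total was that of replicate 1 of week 4, with 12807832 counts.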
